A study of Mus musculus with 27 samples.

Results

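Mitochondrial fatty acid beta-oxidation was followed through 10 of its genes, *Cpt1b*, *Cpt2*, *Acadvl*, *Acadl*, *Acadm*, *Acads*, *Hadha*, *Hadhb*, *Acaa2* and *Etfdh*, in single myofibers of the *tibialis anterior*, a mostly fast muscle of the hindlimb. The members were the probes that carry these gene names in the scanner files, 12 of the 55681 probes on the array. Of the 10 genes 9 had values on enough arrays to be tested, of 16648 genes tested in all, and *Acads* did not. RNA of a single myofiber, after 18 cycles of amplification, was labelled with 1 dye and placed on an array, and 27 such arrays were read. The WT group held 8 myofibers from 2 wild type mice. The Smn1deltaSKM group held 12 myofibers from 3 mice, in which a Cre recombinase driven by the human alpha-skeletal actin promoter deletes exon 7 of floxed *Smn1* in skeletal muscle. The Smn1deltaSKM+AFS group held 7 myofibers from 2 mice of the same model that had received c-kit+ amniotic fluid stem cells by tail vein injection. These counts follow the labels, whereas the results of the paper describe fewer treated myofibers, from 3 mice. All mice were males, with an age of 3 months in the labels, although the methods place the cell injection at that age and the collection 1 month later. The mouse was the unit of replication, since genotype and treatment belong to the mouse.

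Beta-oxidation shortens fatty acids inside mitochondria and feeds acetyl-CoA and electrons to the energy metabolism of muscle. Long chains enter as carnitine esters, made by *Cpt1b*, the muscle form of the outer membrane carnitine palmitoyltransferase, and turned back into acyl-CoA by *Cpt2* on the inner membrane. The acyl-CoA dehydrogenases *Acadvl*, *Acadl*, *Acadm* and *Acads* act on very long, long, medium and short chains in turn. *Hadha* and *Hadhb* encode the alpha and beta subunits of the trifunctional protein, which carries the remaining steps for long chains, *Acaa2* is a thiolase of the matrix, and *Etfdh* passes the electrons of the dehydrogenases to ubiquinone.

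*Hadha* and *Hadhb* start back to back on chromosome 5, with 272 bases between their starts in the RefSeq annotation of the build GRCm38.p6. Of the 27025 genes with a promoter in that table, 10.9% have a neighbour that starts in the opposite direction within 500 bases upstream. The stretch of 250 bases before the start of *Hadhb*, at chr5:30155003-30155252 on the plus strand, is shown because both subunit genes share it, and its capitals mark the 228 bases that lie within 250 bases of both starts. *Acadm* and *Acadvl* are shown beside it because theirs were the only windows of 250 bases, among the 8 members that the table holds, with the letters AGGTCA on either strand, the core motif read by nuclear receptors such as the PPAR and RXR family. Their windows lie at chr3:153944644-153944893 and chr11:70015429-70015678, both on the minus strand, with the motif in capitals. It starts 249 bases before the start of *Acadm*, read on the other strand, and 87 bases before that of *Acadvl*. Of all 32851 windows of this length, 14.0% hold these letters, and a match is no evidence of binding.
Hadhb to Hadha: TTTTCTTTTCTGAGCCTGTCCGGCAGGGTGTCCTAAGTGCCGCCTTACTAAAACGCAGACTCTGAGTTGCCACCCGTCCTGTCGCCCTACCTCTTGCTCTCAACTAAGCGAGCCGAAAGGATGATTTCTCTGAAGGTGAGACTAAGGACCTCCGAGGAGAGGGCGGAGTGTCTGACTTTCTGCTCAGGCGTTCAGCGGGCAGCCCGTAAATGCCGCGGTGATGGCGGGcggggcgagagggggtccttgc
Acadm: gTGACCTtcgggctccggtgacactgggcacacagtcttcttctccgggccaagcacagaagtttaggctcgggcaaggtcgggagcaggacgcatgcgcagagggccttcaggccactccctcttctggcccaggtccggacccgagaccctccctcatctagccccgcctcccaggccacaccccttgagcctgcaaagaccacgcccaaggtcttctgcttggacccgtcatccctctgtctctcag
Acadvl: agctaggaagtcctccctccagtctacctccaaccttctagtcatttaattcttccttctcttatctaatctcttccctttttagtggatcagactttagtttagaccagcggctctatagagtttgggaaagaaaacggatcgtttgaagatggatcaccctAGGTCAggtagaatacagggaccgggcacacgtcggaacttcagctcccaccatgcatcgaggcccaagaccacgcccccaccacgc

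Values are log2 signals relative to the 75th percentile of the array, so that 0 is the level of that percentile, and they compare samples for a probe but not probes with each other. Between 23183 and 37595 probes had a value on an array. The median array held 25156 such probes in WT, 31434 in Smn1deltaSKM and 27431 in Smn1deltaSKM+AFS. The 8 WT arrays shared a slide that held no other group and was read on a separate day, so slide and genotype cannot be told apart in any comparison with WT. Smn1deltaSKM and Smn1deltaSKM+AFS arrays shared 1 slide and both of their scan days. The array carries 2 probes for *Smn1*. At the probe with the lower signal the Smn1deltaSKM mice averaged 0.16 ± 0.22 (SD, n = 3) against 1.85 ± 0.015 (SD, n = 2) in WT, a difference of -1.68 (standard error 0.368, limma, adjusted p = 0.0201), while the other *Smn1* probe differed by 0.19 (adjusted p = 0.715, limma). Each of the 8 myofiber markers, from *Acta1* to *Ryr1*, was above background, meaning that at least 1 spot of its probe was found and well above background, on all 27 arrays.

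In Smn1deltaSKM myofibers 4 of the 9 tested genes were lower than in WT, namely *Cpt1b*, *Cpt2*, *Hadha* and *Etfdh*, by between 2.07-fold and 3.03-fold (limma, adjusted p under 0.05). Both carnitine palmitoyltransferases of the route, the alpha subunit of the trifunctional protein and the electron transfer dehydrogenase were among them, and no acyl-CoA dehydrogenase was. None of the 9 was called higher. Over all genes tested 13.9% were called lower and 22% in either direction. The median difference of the 9 genes was -1.05 on the log2 scale, beside -0.11 over all 16648 genes. In 6 of the 9 genes every Smn1deltaSKM mouse with a value lay below both WT mice, a placing that 33.2% of all genes tested had. The plot of signals by myofiber shows these placings.

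**Figure D1:**
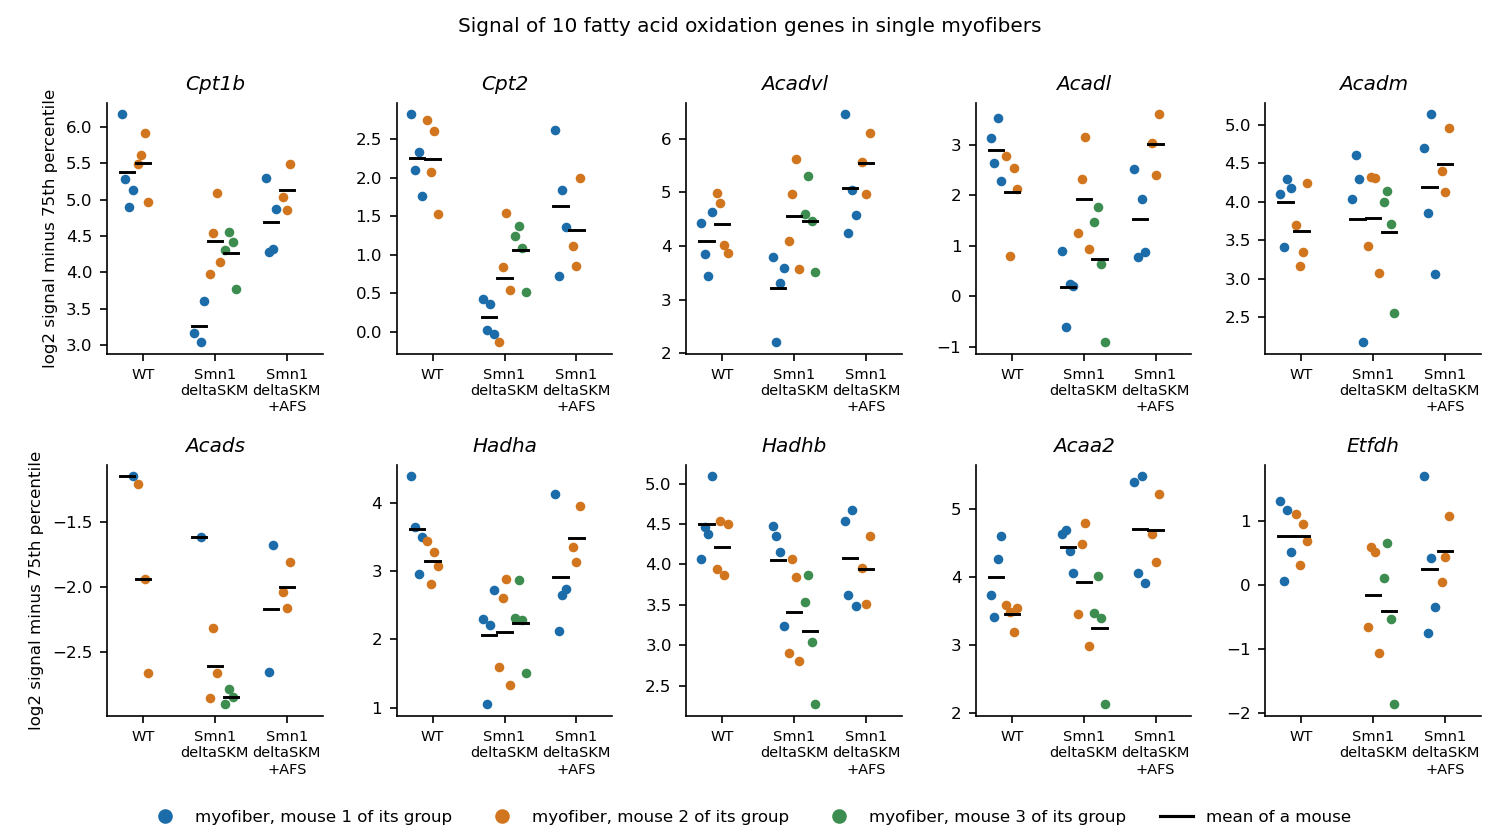
Log2 signal relative to the array's 75th percentile (vertical axis) of the 10 genes in WT (8 myofibers), Smn1deltaSKM (12) and Smn1deltaSKM+AFS (7) arrays, with points for myofibers, colours for the mice of a group and black lines for mouse means; values left out by a spot flag are not drawn. Smn1deltaSKM points of *Cpt1b*, *Cpt2* and *Hadha* lie mostly below all WT points, whereas those of *Acadm* and *Acaa2* spread across the WT range.

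*Cpt1b* catalyses the step at which long-chain fatty acids are committed to the mitochondrion. Its signal ranged from 4.90 to 6.18 with a median of 5.39 over the 8 WT myofibers, and from 3.04 to 5.09 with a median of 4.14 over the 11 Smn1deltaSKM myofibers with a value. The Smn1deltaSKM+AFS myofibers ranged from 4.28 to 5.49 with a median of 4.88. Of the 11 Smn1deltaSKM myofibers 10 lay below the lowest WT myofiber, and the array left out, of mouse 1, had a signal of 1.53 in a spot that the scanner software did not find. Smn1deltaSKM mouse means were 3.27, 4.44 and 4.26 against 5.38 and 5.50 in WT, which gave a difference of -1.45 ± 0.383 (standard error, adjusted p = 0.0328 by limma), or 36.6% of the WT level. The second probe of *Cpt1b* (chromosome 15, build mm9, 89247106 to 89247165, against 89246836 to 89246895 for the brighter probe) differed by -1.93 (standard error 0.399, limma, adjusted p over probes = 0.0170).

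*Cpt2* showed the largest difference among the 9 genes. The WT myofibers lay between 1.52 and 2.83 with a median of 2.22, and the 12 Smn1deltaSKM myofibers between -0.13 and 1.55 with a median of 0.53, so that 11 of 12 lay below all WT myofibers. In Smn1deltaSKM+AFS the range was 0.73 to 2.62 and the median 1.36. Mouse means were 2.26 and 2.24 in WT and 0.19, 0.70 and 1.06 in Smn1deltaSKM, a difference of -1.60 (standard error 0.315, limma, adjusted p = 0.0155) or 33.0% of the WT level. Its brighter probe lies on chromosome 4 at 107576591 to 107576650 (mm9, minus strand). The other probe of *Cpt2* gave -1.18 in the same direction without passing the threshold (limma, adjusted p over probes = 0.0631).

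The subunit genes of the trifunctional protein were both lower in the 3 Smn1deltaSKM mice than in the 2 WT mice, but the difference of only *Hadha* passed the test. WT myofibers ranged from 2.81 to 4.38 for *Hadha* (median 3.35), Smn1deltaSKM myofibers from 1.05 to 2.89 (median 2.29) and Smn1deltaSKM+AFS myofibers from 2.12 to 4.13 (median 3.13). The 3 Smn1deltaSKM mice lay close together, at 2.07, 2.10 and 2.25, below the WT mice at 3.62 and 3.15. The *Hadha* difference was -1.24 ± 0.292 (standard error, adjusted p = 0.0241 by limma), and 10 of 12 Smn1deltaSKM myofibers lay below all WT myofibers. *Hadhb*, which shares the stretch printed above, ranged from 3.87 to 5.09 in WT (median 4.42) from 2.27 to 4.48 in Smn1deltaSKM (median 3.69) and from 3.49 to 4.67 in Smn1deltaSKM+AFS (median 3.96). Its mouse means of 4.06, 3.41 and 3.18 lay below the 4.50 and 4.21 of WT by 0.81 on average (difference -0.81 ± 0.321, standard error), which did not pass the threshold (adjusted p = 0.100, limma). The probes lie on chromosome 5 at 30446215 to 30446274 for *Hadha* and at 30510925 to 30510984 for *Hadhb* (mm9).

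*Etfdh*, with its probe on chromosome 3 at 79407806 to 79407865 (mm9, minus strand), lay near the level of the 75th percentile. WT myofibers ranged from 0.067 to 1.31 (median 0.82) and WT mice had means of 0.77 and 0.77. The 8 Smn1deltaSKM myofibers with a value ranged from -1.87 to 0.66 (median -0.21), and all 4 myofibers of Smn1deltaSKM mouse 1 were left out because the scanner software did not find the spot, with measured signals between -1.38 and -0.42. The 7 Smn1deltaSKM+AFS myofibers ranged from -0.75 to 1.70 (median 0.42) and overlapped both other groups. The test therefore rested on the means of -0.15 and -0.41 of Smn1deltaSKM mice 2 and 3, with a difference of -1.05 (standard error 0.294, limma, adjusted p = 0.0438). With the measured signals of mouse 1 kept, the difference was -1.28 (adjusted p = 0.0245, limma).

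The acyl-CoA dehydrogenases did not move as a set. *Acadl*, for long chains, ranged from 0.80 to 3.52 in WT (median 2.58), from -0.90 to 3.14 in Smn1deltaSKM (median 0.93) and from 0.77 to 3.60 in Smn1deltaSKM+AFS (median 2.40). Its mean difference of -1.52 between Smn1deltaSKM and WT was among the largest, but the myofibers overlapped, the standard error was 0.599 and the threshold was not passed (limma, adjusted p = 0.0981). The signal of *Acadvl* ranged from 3.45 to 4.99 in WT (median 4.22), from 2.21 to 5.61 in Smn1deltaSKM (median 3.94) and from 4.25 to 6.45 in Smn1deltaSKM+AFS (median 5.04). *Acadvl*, for very long chains, had mouse means of 3.22, 4.56 and 4.47 in Smn1deltaSKM, on both sides of the 4.09 and 4.42 of WT, with a difference of -0.17 (95% interval -1.15 to 0.82, adjusted p = 0.795, limma). Smn1deltaSKM mouse 1 was the low one. *Acadm*, for medium chains, differed by -0.083 (95% interval -0.69 to 0.53, adjusted p = 0.836, limma), with mouse means of 3.78, 3.78 and 3.60 against 3.99 and 3.61. Its myofibers ranged from 3.16 to 4.29 in WT (median 3.90), from 2.17 to 4.60 in Smn1deltaSKM (median 4.02) and from 3.06 to 5.13 in Smn1deltaSKM+AFS (median 4.40), so that the groups overlapped. The interval of *Acadvl* still holds differences of more than 1.5-fold in either direction. On mm9 these probes lie on chromosome 1 at 66877673 to 66877732 for *Acadl*, on chromosome 11 at 69823722 to 69823781 for *Acadvl*, on chromosome 3 at 153585670 to 153585729 for *Acadm* and on chromosome 5 at 115560887 to 115560946 for *Acads*, all on the minus strand. *Acads*, for short chains, had values on only 16 arrays, 4 of WT, 7 of Smn1deltaSKM and 5 of Smn1deltaSKM+AFS, between -2.90 and -1.15, and was not tested. With the measured signals of all arrays kept it differed by -0.36 between Smn1deltaSKM and WT (adjusted p = 0.476, limma).

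*Acaa2*, the thiolase, was the only member with a mean above that of WT under the main scaling, and was joined by *Acadvl* and *Acadm* under each of the other scalings. Its signal ranged from 3.18 to 4.60 in WT (median 3.57), from 2.12 to 4.80 in Smn1deltaSKM (median 4.04) and from 3.91 to 5.49 in Smn1deltaSKM+AFS (median 4.63). The Smn1deltaSKM mouse means of 4.44, 3.93 and 3.25 spread around the 4.00 and 3.45 of WT, with a difference of 0.15 (95% interval -0.72 to 1.01, adjusted p = 0.796, limma).

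These calls depended on single mice and on the scaling. limma called 0 of the 9 genes without WT mouse 1 and 0 without WT mouse 2 (4 and 5 of them at an unadjusted p under 0.05), where WT was a single mouse assumed to vary like the others and 0 and 4 of all genes were called, while the median of the members was -1.01 and -1.05. It called 2 without Smn1deltaSKM mouse 2, 1 without Smn1deltaSKM mouse 3 and 5 without Smn1deltaSKM mouse 1, beside 8.23%, 9.81% and 43.4% of all genes. With slide as a random block 0 were called (2 at an unadjusted p under 0.05), with a median of -1.01 and 0.595% of all genes called. Quantile normalization left *Cpt2* alone, and with the 75th percentile taken over the probes with a value 0 were called (0 at an unadjusted p under 0.05) while the median of all genes moved to 0.41 and that of the members lay 0.69 below it.

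Smn1deltaSKM+AFS myofibers had a higher mean than Smn1deltaSKM myofibers for each of the 9 tested genes, but none of the differences passed the test across all genes. They ranged from 0.47 for *Hadhb* to 1.32 for *Acadl* on the log2 scale, with a median of 0.83 beside 0.058 over all genes. The share of genes with a difference above 0 was 57.3% over all genes. limma called 0 of the 9 genes and 0% of all genes (adjusted p = 0.9997 for each of the 9). At an unadjusted p under 0.05, 5 of the 9 were higher, which 2.72% of all genes tested were. Of the 9, 0 were without Smn1deltaSKM+AFS mouse 2, where the treated arm was a single mouse and the median was 0.71, 7 were without Smn1deltaSKM mouse 1 (median 0.72) and 8 without Smn1deltaSKM myofibers 1 to 3 (median 0.90). Both Smn1deltaSKM+AFS mice lay above all Smn1deltaSKM mice with a value in 7 of the 9 genes, a placing that 12.4% of all genes had.

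The unadjusted values were lowest for *Hadha*. Its Smn1deltaSKM+AFS mouse means of 2.91 and 3.48 lay above the 2.07 to 2.25 of the Smn1deltaSKM mice by 1.05 (95% interval 0.38 to 1.72, unadjusted p = 0.00651 and adjusted p = 0.9997, limma), and 4 of the 7 myofibers lay above every Smn1deltaSKM myofiber. *Acadvl*, which was not called between Smn1deltaSKM and WT, had means of 5.08 and 5.55 after the treatment and a difference of 1.23 (95% interval 0.24 to 2.21). *Acaa2* had nearly the same mean in both treated mice, 4.72 and 4.69, and lay 0.83 higher (95% interval -0.038 to 1.70). *Cpt1b* and *Cpt2* differed by 0.92 and 0.83. *Acadl* had the largest difference and also the widest interval, from -0.055 to 2.69, with treated mice at 1.52 and 3.01.

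These arrays shared scan days, which allowed values within a day. On day 2, which held 9 Smn1deltaSKM and 5 Smn1deltaSKM+AFS arrays, all 9 genes were higher with a median of 1.01 (0 called, 8 at an unadjusted p under 0.05, limma). On day 1, with 3 Smn1deltaSKM myofibers of mouse 1 and 2 treated myofibers, the median over the 8 genes with values was 0.77 and *Hadhb* was lower by 0.18, with no test. With slide as a fixed block only the slide shared by both groups bears on the difference, with 1 Smn1deltaSKM and 1 treated myofiber. There *Acaa2* turned to -0.15. *Etfdh* had no Smn1deltaSKM value on that slide, so its fitted value does not compare the groups within it. The median of 0.89 counts *Etfdh* among the 9 genes and is therefore not a median within that slide.

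Between Smn1deltaSKM+AFS and WT none of the 9 genes was called (limma, 1 at an unadjusted p under 0.05, namely *Acaa2*), where 7.77% of all genes were. The differences ran in both directions, 6 lower and 3 higher (3 lower and 6 higher after the normexp background correction), with a median of -0.20 beside -0.044 over all genes. *Cpt2* (-0.77, 95% interval -1.56 to 0.019) and *Cpt1b* (-0.53, -1.49 to 0.43) had the lowest values. *Acadvl* (1.06, -0.020 to 2.14), *Acaa2* (0.98, 0.027 to 1.93) and *Acadm* (0.54, -0.13 to 1.20) were above WT. The untreated Smn1deltaSKM mice are other animals, compared with the same WT mice. The genes above WT in treated mice were those with differences of -0.17, 0.15 and -0.083 in untreated mice. The count of calls was 3 of 9 without Smn1deltaSKM mouse 1, beside 29.1% of all genes, where *Cpt2* was lower and *Acadvl* and *Acaa2* were higher (adjusted p = 0.0489, 0.0222 and 0.0480, limma), although that mouse belongs to neither group and enters only the estimate of the spread.

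**Figure D2:**
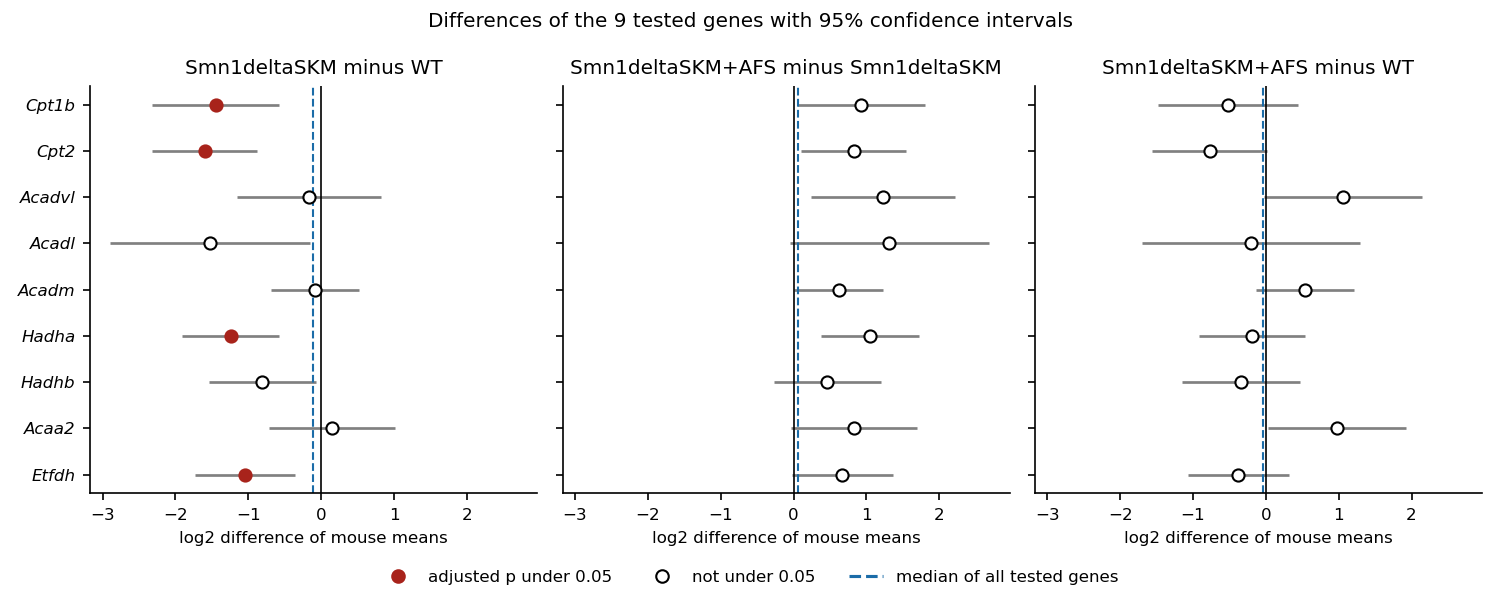
Log2 difference of mouse means (horizontal axis) of the 9 tested genes in the 3 comparisons, with bars for 95% confidence intervals, filled points for an adjusted p under 0.05 (limma) and a dashed line for the median of all genes tested. The filled points, *Cpt1b*, *Cpt2*, *Hadha* and *Etfdh*, lie between -1.60 and -1.05 in the comparison of Smn1deltaSKM with WT, and all 9 points lie above 0 in that of Smn1deltaSKM+AFS with Smn1deltaSKM.

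Myofibers of the same mouse differed from each other. The standard deviation of myofibers within a mouse was lowest for *Cpt1b* at 0.43 and highest for *Acadl* at 0.85, and it was 0.81 for *Etfdh*, 0.74 for *Acadvl* and 0.56 for *Cpt2*. After subtraction of the mouse mean the 9 genes varied together from myofiber to myofiber. Pearson's r was above 0 in all 36 pairs of genes, with a median of 0.69, and without Smn1deltaSKM mouse 1 again in all 36 with a median of 0.74. These values describe 27 myofibers (23 or more per pair) that share an array, an amplification and a scaling between the genes of a pair, and no test was made.

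The likeness was uneven along the pathway. *Hadha* varied most like *Acadvl* (r = 0.88), *Etfdh* and *Cpt1b* (both 0.83). *Hadhb* varied most like *Acaa2* (0.89) and *Acadm* (0.82). The 2 subunit genes that start from the same stretch of chromosome 5 had an r of only 0.35 with each other, and of 0.55 without Smn1deltaSKM mouse 1. *Cpt1b* and *Acadm* had the lowest value, 0.068.

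**Figure D3:**
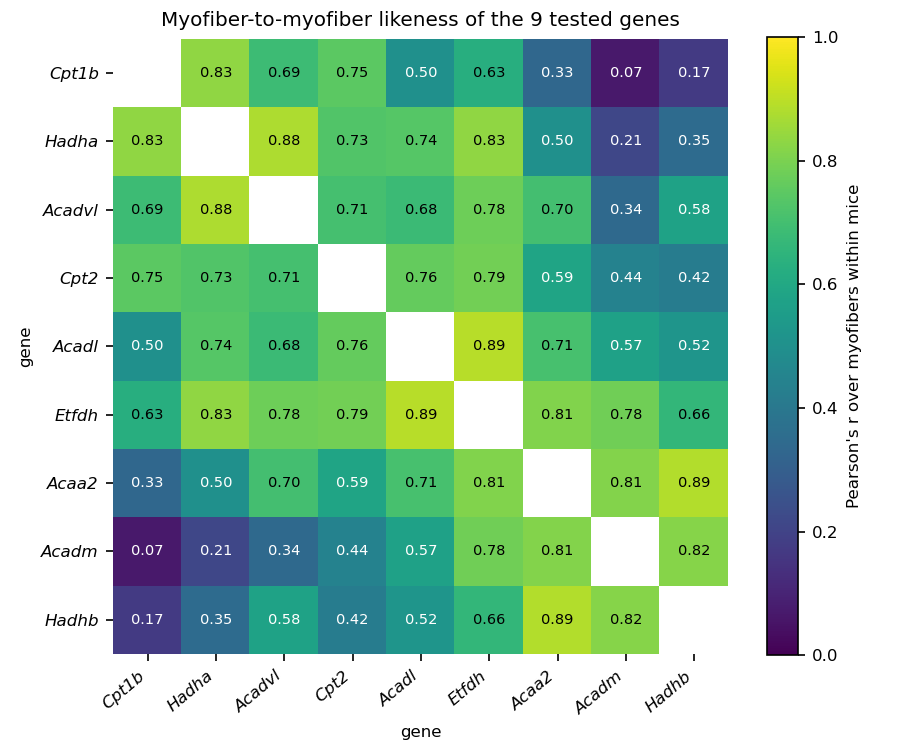
Pearson's r between each pair of the 9 tested genes over the myofibers, after subtraction of the mean of each mouse (26 or 27 myofibers, 23 for pairs with *Etfdh*), with both axes listing the genes and the colour scale running from 0 to 1. Values of 0.81 to 0.89 join *Acaa2*, *Acadm* and *Hadhb*, while *Cpt1b* stands at 0.07 and 0.17 with *Acadm* and *Hadhb*.

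Among 10135 other genes with values on every array, the nearest to the mean of the 9 members by the same measure included *Sod2*, the superoxide dismutase of the mitochondrial matrix (r = 0.94), *Atp5f1*, a subunit of ATP synthase (0.93), *Gnpat*, a peroxisomal enzyme of ether lipid synthesis (0.93), and the cytosolic malate dehydrogenase gene *Mdh1* (0.91). *Gnpat* was also lower in Smn1deltaSKM than in WT, with a difference of -1.14 on the log2 scale (limma, adjusted p = 0.0298). *Sod2*, *Atp5f1* and *Mdh1* differed by -0.32, -0.45 and 0.0085 and were not called.

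Beyond the 10 members, 47 of 59 genes of fatty acid use and its control were tested. In Smn1deltaSKM 12 of the 47 were lower, where 13.9% of all genes were, and 1 was higher than in WT (limma, adjusted p under 0.05), with a median of -0.50. Without WT mouse 1 or without WT mouse 2 limma called 0 of the 47, as it called 0 and 4 of all genes, with medians of -0.42 and -0.55. Quantile normalization left 7 lower and 2 higher, and with the 75th percentile over the probes with a value 0 were lower, 1 was higher and the median was 0.030, which is 0.38 below that of all genes in that setting. In the list of other mitochondrial enzymes 3 of 13 were lower, *Hadh*, the short-chain hydroxyacyl-CoA dehydrogenase (-1.46, adjusted p = 0.0144), the acetoacetyl-CoA thiolase *Acat1* (-1.52, adjusted p = 0.0181) and *Hsd17b10* (-0.86, adjusted p = 0.0467). *Etfa* and *Etfb*, which together deliver electrons to *Etfdh*, differed by -0.22 and -0.97 (adjusted p = 0.592 and 0.0898, limma). *Acad10* differed by 0.95 (adjusted p = 0.0525, limma).

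Of the 7 peroxisomal genes tested 3 were lower, among them the multifunctional enzyme *Hsd17b4* (-1.49, adjusted p = 0.0461) and the transporter *Abcd3* (-0.95, adjusted p = 0.0470), both by limma. *Acaa1a* and *Acaa1b*, close paralogs whose probes may share transcripts, differed by -0.62 and -0.74 with standard errors of 0.761 and 0.685. Of 7 genes of fatty acid uptake and activation only the acyl-CoA synthetase *Acsl4* was lower (-1.69, adjusted p = 0.0239, limma). *Acsl1*, the synthetase most used in muscle, and *Fabp3*, the fatty acid carrier of the cytosol, differed by -0.14 and -0.072. Of the 5 carnitine genes 2 were tested, *Slc25a20*, the carrier between *Cpt1b* and *Cpt2* (0.58), and *Crat* (-0.37), and neither was called.

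*Mlycd*, which removes malonyl-CoA, the inhibitor of carnitine palmitoyltransferase 1, was lower by 1.82 (adjusted p = 0.0223, limma) and *Lpin1* by 1.65 (adjusted p = 0.0198, limma), 2 of 7 in their list. *Acacb*, which makes malonyl-CoA at the mitochondrion, differed by -0.64 and *Pdk4* by 0.13 without passing the test. Of 11 transcriptional regulators 3 were lower, the retinoid X receptors *Rxrg* (-1.95, adjusted p = 0.0138) and *Rxra* (-1.34, adjusted p = 0.0149) and *Klf15* (-1.45, adjusted p = 0.0418), and *Pparg* was higher by 0.94 (adjusted p = 0.0470, limma). *Pparg* was not called with quantile normalization, with normexp or in the authors' value table. *Ppargc1a* and *Esrra*, activators of mitochondrial genes, differed by 0.57 and -0.34 and were not called.

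**Figure D4:**
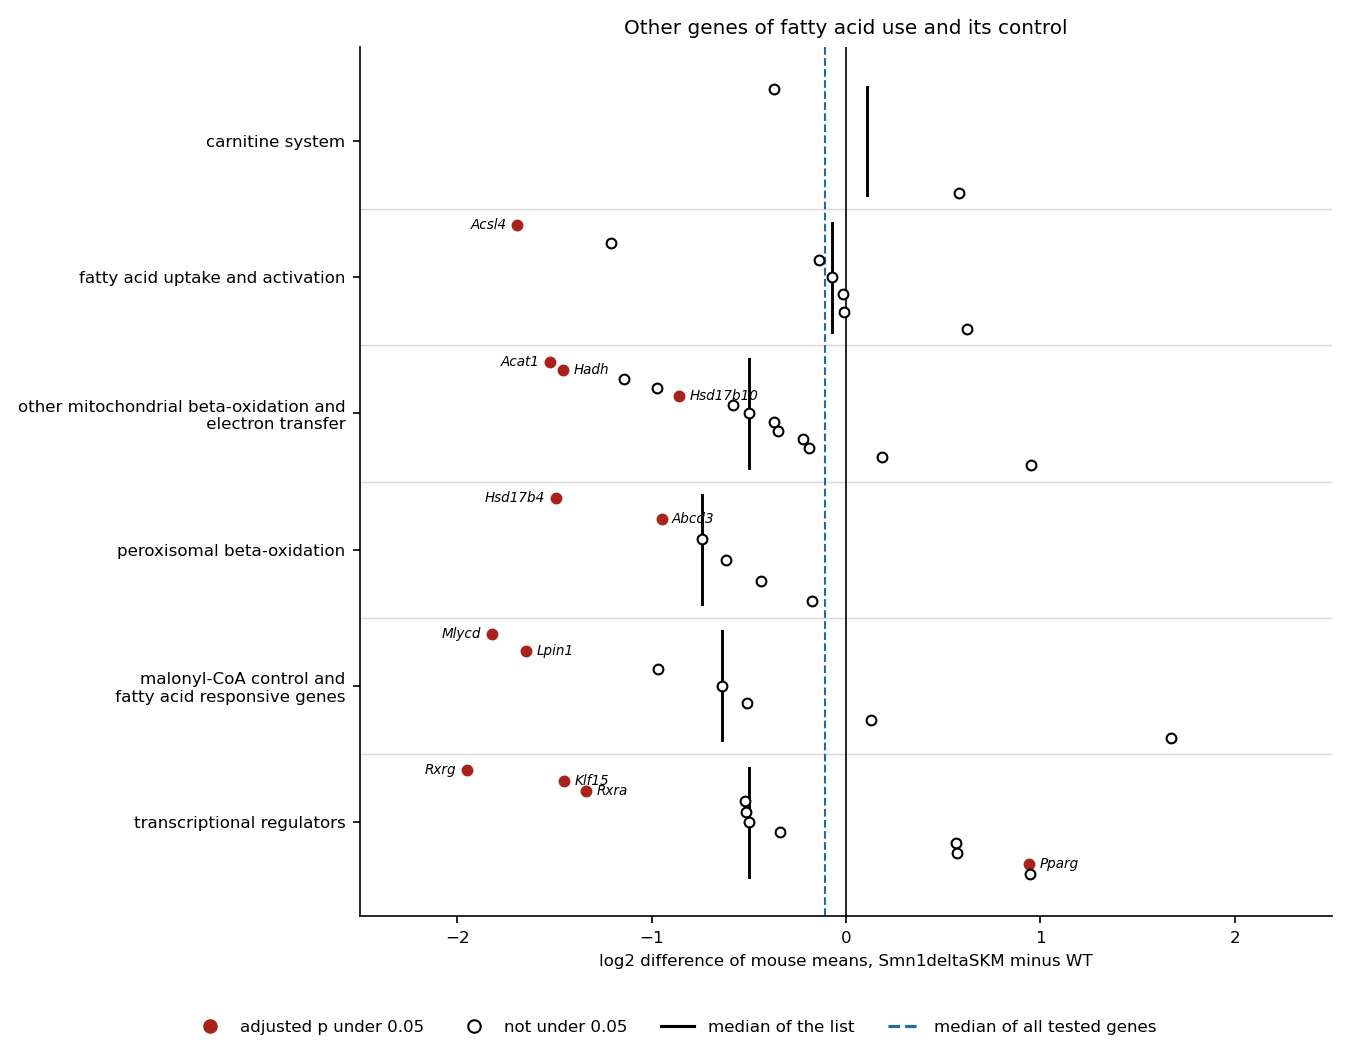
Log2 difference of mouse means between Smn1deltaSKM and WT (horizontal axis) of 46 of the 47 tested genes in 6 lists of fatty acid use and its control (vertical axis), with filled and named points for an adjusted p under 0.05 (limma), black bars for the medians of the whole lists and a dashed line for the median of all genes tested. The 11 genes drawn as lower lie between -1.95 and -0.86, and *Pparg* is the named point above 0.

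After the treatment 39 of the 47 genes had a higher mean than in Smn1deltaSKM, with a median of 0.61 and none called. Over all genes 57.3% had a higher mean, and the median was 0.058. Against WT the treated myofibers had 3 of the 47 genes called, beside 7.77% of all genes, with 2 higher, *Slc25a20* (1.48, adjusted p = 0.0439) and *Ppara*, the fatty acid sensing receptor (1.67, adjusted p = 0.0437), and *Rxra* lower (-1.34, adjusted p = 0.0343), all by limma. The call of *Ppara* was lost with quantile normalization, with normexp and in the authors' value table.

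Some markers of the myofiber itself and of its type differed between the genotypes, beside 22% of all genes called in either direction. Of 8 myofiber markers 2 were lower in Smn1deltaSKM, *Ckm* (-1.76, adjusted p = 0.0214) and *Ryr1* (-1.56, adjusted p = 0.0132, limma), with a list median of -1.06, close to the median of the 9 members. The list lay 0.95 below all genes, and 7 of the 8 were lower under each scaling tried. Their summed linear signal, in multiples of the 75th percentile, was 1103 to 1755 in WT, 615 to 1037 in Smn1deltaSKM and 956 to 1543 in Smn1deltaSKM+AFS myofibers. The mean of 7 myofiber markers varied with that of the members between the myofibers of a mouse (r = 0.64 over 27 myofibers), and their part in the result was not tested. Of 8 fast fiber markers *Mylpf* and *Actn3* were lower (-1.99 and -1.14) and *Myh1*, the IIx myosin, was higher (2.20, limma, adjusted p = 0.0224), with summed signals of 1797 to 3441, 1374 to 2302 and 2145 to 2758 in the groups in the same order. Of 6 slow or oxidative markers tested *Tnni1* was higher (1.21, adjusted p = 0.0252, limma), and *Myh2*, the IIa myosin, was above background on 0 WT, 2 Smn1deltaSKM and 2 Smn1deltaSKM+AFS arrays, with summed signals of the list of 2.88 to 9.44, 8.84 to 24.7 and 8.48 to 45.0.

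Of the cell types that can cling to a myofiber, leukocytes had 2 of 5 tested markers higher in Smn1deltaSKM, *Cd68* (2.99, adjusted p = 0.0368) and *Ptprc* (1.33, adjusted p = 0.0213, limma). Over all genes 22% were called in either direction. *Csf1r* differed by -0.50 and *Cd14* by 0.98 (adjusted p = 0.163 and 0.129, limma), and normexp left 1 marker of the leukocyte list called higher. *Emr1*, specific to macrophages, was above background on 2 of 8 WT, 8 of 12 Smn1deltaSKM and 3 of 7 Smn1deltaSKM+AFS arrays. The summed signals of that list overlapped, at 198 to 314, 189 to 261 and 231 to 313, and were set by *Itgam*, which differed by -0.14. Of 5 adipocyte markers *Lep* alone was tested, with a difference of -1.36 (adjusted p = 0.0465, limma) that rested on 8 of 80 spots in WT and 58 of 120 in Smn1deltaSKM and was not called with quantile normalization, normexp or centring. *Adipoq* was above background on 3 of 8 WT, 11 of 12 Smn1deltaSKM and 5 of 7 Smn1deltaSKM+AFS arrays. In the same order the counts were 6, 9 and 4 for *Plin1*, 2, 9 and 6 for *Fabp4* and 0, 6 and 0 for *Cfd*. The list sums were 0.34 to 5.02, 0.76 to 9.26 and 0.89 to 17.3. Smn1deltaSKM arrays also had more probes with a value over the whole array, with a median of 31434 against 25156 in WT. The part of this in the counts above background was not tested.

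Of 7 tested markers of endothelial cells, fibroblasts, satellite cells, smooth muscle and erythroid cells none was called (limma, 0 at an unadjusted p under 0.05), and all 7 had differences above 0. That of *Myf5* rested on 7 of 80 spots in WT and 11 of 120 in Smn1deltaSKM, and that of *Acta2* on 34 of 80 and 105 of 120. With all spots kept, *Myf5* ranged from -4.93 to -3.85 in WT and from -5.54 to -4.16 in Smn1deltaSKM. Among fibroblast markers *Col1a2* differed by 1.20 and *Col3a1* by 1.07 (adjusted p = 0.174 and 0.426, limma), and *Dcn* was above background on 1 of 8 WT, 12 of 12 Smn1deltaSKM and 5 of 7 Smn1deltaSKM+AFS arrays. Over all probes the median array had 25156, 31434 and 27431 with a value in the groups in the same order. The summed fibroblast signal ranged from 0.80 to 116 in WT (median 2.32), from 1.53 to 34.5 in Smn1deltaSKM (median 11.4) and from 1.94 to 22.6 in Smn1deltaSKM+AFS (median 15.0), so that the ranges overlapped. *Cd34*, listed for satellite cells, was above background on 1, 11 and 4 arrays of the groups in that order. The other genes of that list, *Pax7* and *Myf5*, were so on 1, 1 and 1 and on 7, 11 and 7 arrays. *Hba-a1* of the erythroid list differed by 1.46 (adjusted p = 0.290, limma). The other sums also overlapped, with endothelial sums of 5.22 to 18.2, 8.46 to 17.4 and 12.2 to 18.5, satellite cell sums of 0.11 to 0.72, 0.33 to 1.21 and 0.32 to 0.73, and smooth muscle sums of 0.49 to 16.3, 0.90 to 4.79 and 0.94 to 11.2. Erythroid sums were 0.14 to 30.9, 0.66 to 27.7 and 0.70 to 39.5, and no Schwann cell marker could be tested, with sums of 0.11 to 0.53, 0.14 to 0.39 and 0.13 to 0.29. In such samples fewer cells of a type and less RNA per cell cannot be told apart, and the part of these cells in the values of the members was not tested.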

How the data were processed

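Single myofibers were lysed, RNA was amplified and labelled with Cy3, and arrays were read with Feature Extraction, whose headers place probes on mm9. Per the file headers, the deposited intensity values are processed signals after the authors' background subtraction. The authors also deposited a value table, which was used as an alternative. Its columns had nearly equal distributions, as after quantile scaling, and its exact processing is not given in the sources used here.

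The log2 of each signal was centred on the array's 75th percentile. Spots not found, not uniform or not well above background were left out, a mean was taken over repeated spots, a probe needed values on 75% of arrays or more, and the probe with the highest mean stood for a gene. Myofibers were averaged per mouse, and the 3 groups were fitted in limma (version 3.58.1) with Benjamini-Hochberg adjustment over all genes and a threshold of 0.05. The paper describes the controls as littermates, while its methods also name GFP+ mice as a source of myofibers. Separate litters are not stated, so p-values measure the spread between these mice. The code was tested on simulated data. Members and lists were chosen with earlier results of these data known. Named genes were all members, called list genes and the 2 brightest tested genes of each pathway list. Genes called after treatment against WT, markers not called and *Etfb* were named after their values were seen. Genes that this rule names and the text does not are not reported here. Precision is limited by the number of mice and arrays.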

Additional observations from a re-analysis of the deposited data

How the results depend on the processing

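For Smn1deltaSKM against WT, 4 members were called in the main setting, 1 with quantile normalization, 1 when normexp preceded that step, 2 with centring on the probes detected everywhere, 2 in the authors' value table, 0 with slide as a random block, and 0 with the 75th percentile over detected probes, a setting chosen after seeing the data. Leaving out each mouse in turn gave 0 to 5. The median member difference was -0.72 with normexp, -0.79 with centring and -0.28 with the 75th percentile over detected probes. *Acadvl* turned to 0.14 with quantile normalization, 0.37 with normexp, 0.047 with centring, 0.14 in the value table and 0.36 over detected probes, and ranged from -0.41 to 0.26 without single mice. *Acadm* turned to 0.17, 0.11, 0.13, 0.17 and 0.45 in the same settings, and ranged from -0.27 to 0.11. *Acaa2* ranged from -0.14 to 0.46 without single mice.

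Against Smn1deltaSKM, 0 members were called in treated myofibers under any setting tested, and the differences turned only for *Hadhb* within scan day 1 (-0.18) and *Acaa2* with slide as a fixed block (-0.15). The latter value rests on 1 myofiber of each group. Against WT, 3 were called with myofibers as replicates, beside 41.7% of all genes, and 0 to 3 without single mice. The median there was 0.14 with normexp, -0.50 with slide as a random block and 0.12 over detected probes, and ranged from -0.47 to 0.095. *Acadl* turned to 0.27 with normexp and 0.12 over detected probes (-0.95 to 0.54 without single mice), *Hadha* to 0.14 and 0.14 (-0.47 to 0.095) and *Hadhb* to 0.062 with normexp.

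The labels do not say whether mice of the same number in different groups belong together. Deviations of same-numbered mice correlated at -0.064 to 0.31, beside -0.32 to 0.32 for mice of different number. With 2 mice in a group the deviations mirror each other, so these values cannot decide it. With the mouse number as a replicate block 2 members were called against WT in Smn1deltaSKM, and 2377 genes in place of 3656. Over all genes that count was 9081 with myofibers as replicates, 5908 with mouse as a random block, 99 with slide as a random block, 1199 over detected probes, 0 and 4 without WT mouse 1 and 2, and 7230, 1370 and 1633 without Smn1deltaSKM mouse 1, 2 and 3. The share of lower genes among those called was 63.4% in the main setting, 42.3% with centring, 52.1% with all measured signals kept and 11.6% over detected probes. The cause of these changes was not tested. Of the 11 spots of *Acads* left out, 9 were not well above background, whereas all 4 of *Etfdh* were not found.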
